A study of Mus musculus with 32 samples.

Results

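A set of 10 imprinted genes was followed through the developing mouse cortex: the growth factor gene Igf2 and the RNA gene H19, the receptor adaptor gene Grb10, Dlk1 and its RNA gene neighbour Meg3, the transcription factor genes Plagl1 and Peg3, and Ndn, Peg10 and Mest. They were taken by symbol, 10 of the 32285 genes in the deposited tables. RNA was counted in single cells of dorsal telencephalon, from which the cerebral cortex develops, of C57BL/6J embryos at E17.5 and at 3 earlier stages, E12.5, E14.5 and E16.0. Embryos were WT or Chd8 het (Chd8+/-), the latter with 1 working copy of Chd8, which encodes a chromatin remodelling protein. Each genotype and stage had 4 libraries, M1 and M2 from males and F1 and F2 from females, each from 1 embryo, and a WT and a het library of the same name and stage came from the same litter. The 32 libraries gave 138226 retained cells, from 2399 to 6951 each.

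An imprinted gene is transcribed mainly from the copy inherited from one parent, because DNA methylation laid down in the egg or the sperm marks the copies differently. Many such genes act on fetal growth: among these, Igf2 promotes growth and is expressed from the paternal copy, whereas H19 and Grb10 are expressed from the maternal copy in most tissues and restrain it, with Grb10 switching to the paternal copy in neurons. Dlk1, Plagl1, Peg3, Ndn, Peg10 and Mest are paternally expressed and Meg3 maternally. The counts hold no parent of origin, since the strain is inbred, so that every value below is the sum over both copies.

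On build GRCm38, in the GENCODE M21 annotation, Igf2 (chromosome 7, 142650766 to 142666816, minus strand) and H19 (chromosome 7, 142575529 to 142578143, minus strand) were 72.6 kb apart. Dlk1 (chromosome 12, 109452823 to 109463336, plus strand) and Meg3 (chromosome 12, 109541001 to 109571726, plus strand) were 77.7 kb apart. Also on chromosome 7 were Peg3 (6703892 to 6730431, minus strand) and Ndn (62346569 to 62350262, plus strand), and both Peg10 (4747306 to 4760517, plus strand) and Mest (30723547 to 30748465, plus strand) were on chromosome 6. Grb10 was on chromosome 11 (11930508 to 12038683, minus strand) and Plagl1 on chromosome 10 (13060504 to 13131694, plus strand). Whether the counting used strand is not stated, so reads of Meg3 and the antisense gene Gm26906, and of Igf2 and Igf2os, may not be told apart, and the same holds for Mest and Copg2, which overlap on opposite strands.

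The start sites of some of these genes lie in the methylated regions themselves, and 4 windows from RefSeq (GRCm38.p6, 250 bases before to 50 after a start) are shown because they hold the hexamer TGCCGC, the core that the zinc finger protein ZFP57 binds when it is methylated. Capitals mark the hexamer, written as GCGGCA where it lies on the other strand.
Mest (chr6:30737800-30738099, plus strand): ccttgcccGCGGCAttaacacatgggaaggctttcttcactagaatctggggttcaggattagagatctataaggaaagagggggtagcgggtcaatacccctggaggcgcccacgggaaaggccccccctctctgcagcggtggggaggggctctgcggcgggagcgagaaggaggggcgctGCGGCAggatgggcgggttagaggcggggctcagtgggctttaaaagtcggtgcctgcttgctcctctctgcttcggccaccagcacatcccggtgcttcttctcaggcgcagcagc
Plagl1 (chr10:13090582-13090881, plus strand): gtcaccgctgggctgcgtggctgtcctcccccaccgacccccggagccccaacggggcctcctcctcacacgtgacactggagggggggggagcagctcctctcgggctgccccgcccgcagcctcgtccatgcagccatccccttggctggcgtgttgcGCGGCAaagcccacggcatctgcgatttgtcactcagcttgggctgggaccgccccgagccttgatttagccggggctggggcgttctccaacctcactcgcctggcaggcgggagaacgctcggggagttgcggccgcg
Grb10 (chr11:12037371-12037670, minus strand): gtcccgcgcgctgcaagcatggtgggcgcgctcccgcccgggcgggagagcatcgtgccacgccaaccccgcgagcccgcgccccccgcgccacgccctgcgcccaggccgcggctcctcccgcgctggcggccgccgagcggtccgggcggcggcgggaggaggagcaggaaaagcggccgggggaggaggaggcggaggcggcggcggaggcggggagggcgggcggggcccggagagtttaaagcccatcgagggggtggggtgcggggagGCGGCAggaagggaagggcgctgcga
Meg3 (chr12:109540746-109541045, plus strand): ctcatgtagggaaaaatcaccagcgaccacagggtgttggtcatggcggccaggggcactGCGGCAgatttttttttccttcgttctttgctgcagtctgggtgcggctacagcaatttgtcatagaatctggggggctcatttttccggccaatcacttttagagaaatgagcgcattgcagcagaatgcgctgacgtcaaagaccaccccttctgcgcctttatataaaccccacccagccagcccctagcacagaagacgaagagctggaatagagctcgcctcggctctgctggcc
The Mest window held 2 copies, against 1.53% of 32851 mouse windows of this length with 2 or more, and the other 3 windows held 1, against 11.6% with at least 1. Another Mest window that overlaps the one shown held the same 2. Of 15 windows found for 8 of the genes, one of Igf2 (chr7:142661222-142661521) held 1 copy, and no window of Peg3, Ndn or Dlk1 held any. The number of CG dinucleotides was 45 in the Grb10 window, more than in 98.1% of windows, 26 for Plagl1, 17 for Mest and 13 for Meg3, against a median of 7. The windows shown were picked for the hexamer, so the shares beside them are no test of an excess. Which of these windows lie in methylated regions is not given here. A match of letters is a description, and neither methylation nor binding was measured here.

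Cells were grouped by the detection of a marker gene. Sox2, a gene of radial glia, was detected in 53968 cells, Eomes, of intermediate progenitors, in 31743, Neurod6, of excitatory neurons, in 84958, Gad2, of interneurons, in 4782 and Cldn5, of the endothelial cells that line blood vessels, in 1651. A further 356 cells with 3 or more UMIs (counted RNA molecules) of the collagen gene Col1a2, called Col1a2-high here, were fibroblast-like at E12.5. The classes overlap: 28.7% of retained cells met more than 1 rule, and only 7.89% of Eomes-detected and 24.05% of Cldn5-detected cells met no other. Every class stood above all cells in at least 6 markers of the list for its cell type, or in 5 of 5 for Eomes-detected cells. Each list holds the gene that defines the class, which is above all cells by the rule itself. Of the Col1a2-high cells, 304 were from E12.5, with 14 to 77 per library, and those of E16.0 and E17.5, 13 and 31 cells, carried other markers: Col1a1 was at 1022.5 CPM (UMIs of the gene per 1000000 UMIs of the class in a library) at E12.5, 2.703 CPM at E16.0 and 38.3 CPM at E17.5, whereas the pericyte gene Rgs5 was at 133, 2427 and 3019 CPM. The 8 cells of E14.5 had 1302 CPM of Col1a1 but were too few to enter. Col1a2-high levels below are therefore from E12.5 alone, although the fit of genotype and stage also held 1 later library, WT M1 of E17.5, with 10 such cells. Chd8 was lower in the het library in 15 of 16 pairs, at 19.3 to 70.7 CPM against 39.1 to 82.9 CPM in WT. At E12.5 the median UMIs per cell ran from 8593 to 10478 in WT, while het M1, F1 and F2 were shallower and the het range was 4089 to 10531. Libraries shared at most 1.30% of their barcodes. Levels were not compared between genes.

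At E12.5 in WT embryos, 9 of the 10 genes had their highest mean in endothelial-like or fibroblast-like cells: Igf2, Grb10, Dlk1, Meg3 and Peg3 in Col1a2-high cells and H19, Plagl1, Peg10 and Mest in Cldn5-detected cells. Ndn alone was highest in Neurod6-detected cells. For Igf2, H19 and Mest the libraries of the highest and the next class overlapped. The share of all genes with their highest mean in Col1a2-high or Cldn5-detected cells is not given here, and both classes hold few cells. For a test over both genotypes, cells that met exactly 1 rule were summed per class and library where there were at least 10, and each class was compared with Neurod6-detected cells within libraries by edgeR's quasi-likelihood test, adjusted over all genes by Benjamini and Hochberg. Sox2-, Eomes- and Neurod6-detected cells entered from all 32 libraries and Gad2-detected cells from 26. Col1a2-high cells entered from the 8 libraries of E12.5 alone, and Cldn5-detected cells from 15, of which 5 were of E12.5, 0 of E14.5, 4 of E16.0 and 6 of E17.5, so that the classes rest on different sets of libraries and stages. Of 50 comparisons of a member with Neurod6-detected cells, 40 passed an adjusted p of 0.05, 30 higher and 10 lower, and in 41 the unadjusted p was under 0.05. Most genes differ between cell types, so these counts are read against the background: 8 of 10 members passed in Cldn5-detected cells (75.7% of all genes), 9 in Col1a2-high (65.7%), 9 in Eomes-detected (76.3%), 6 in Gad2-detected (40.3%) and 8 in Sox2-detected cells (85.7%). Their median log2 difference was 4.07 in Cldn5-detected and 2.76 in Col1a2-high cells, where that of all genes was -0.14 in both. The medians for the other classes were 0.76 in Sox2-detected, 0.84 in Eomes-detected and 0.82 in Gad2-detected cells, against -0.04, -0.05 and -0.13 for all genes. The 37 tested genes of a wider list of imprinted genes had medians of -0.25 in Cldn5-detected and -0.15 in Col1a2-high cells, with 30 and 28 of them past the test (12 and 14 higher). When cells of several classes were kept, the differences were mostly smaller: that of H19 in Cldn5-detected cells was 4.88 in place of 7.45, and that of Grb10 in Sox2-detected cells 1.44 in place of 3.37.

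**Figure D1:**
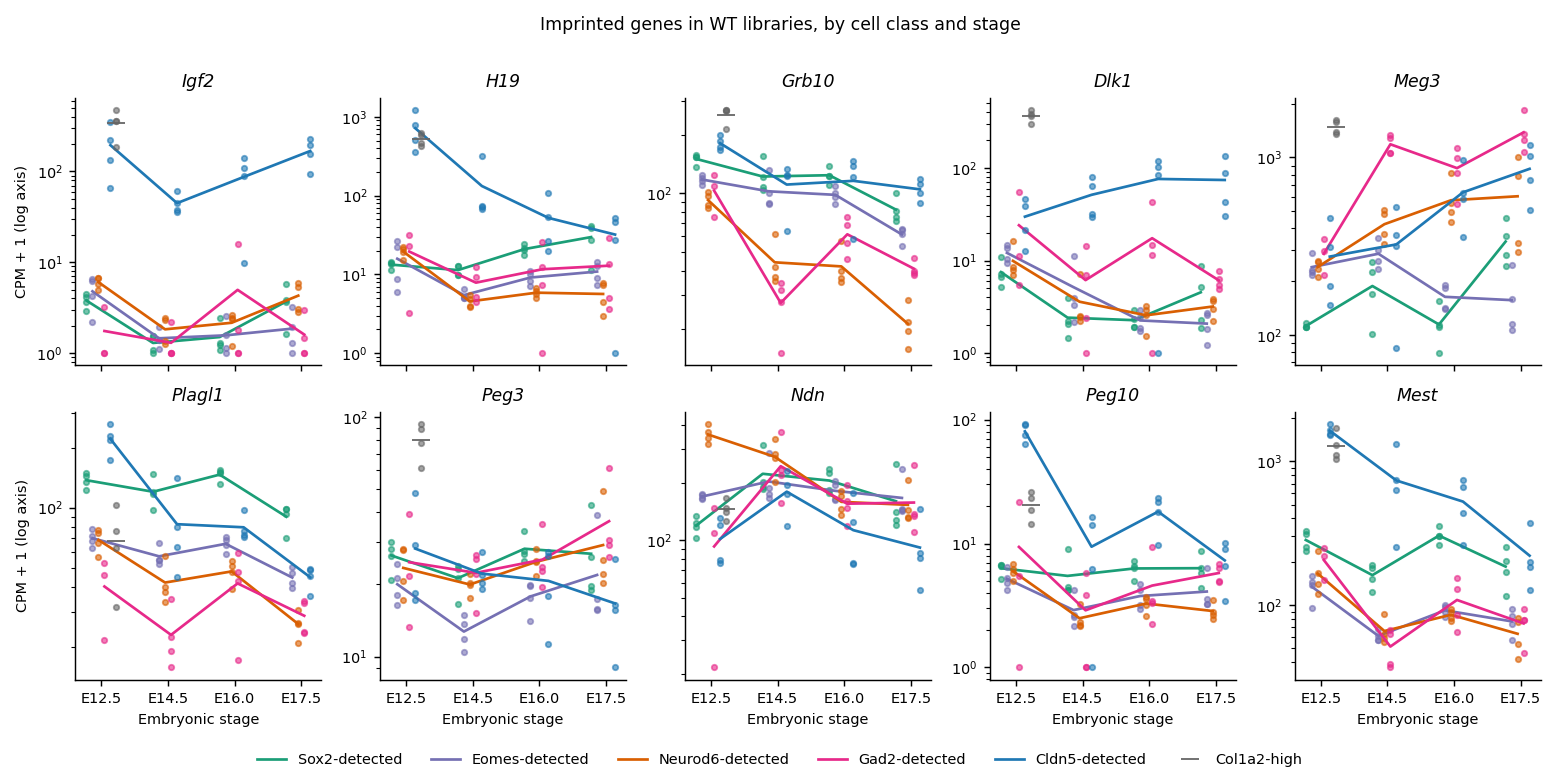
Level of each imprinted gene in WT libraries, as CPM plus 1 on a log axis, against embryonic stage. Points are libraries and lines join the means of a class; Col1a2-high cells are shown at E12.5 only, where Igf2, Dlk1 and Meg3 had their highest means in them, and Mest in Cldn5-detected cells went from a mean of 1634 CPM at E12.5 to 220 CPM at E17.5.

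Igf2, the insulin-like growth factor of the fetus, was found mainly in fibroblast-like and endothelial-like cells. In Col1a2-high cells of WT embryos at E12.5 it stood at 473, 183, 358 and 362 CPM in M1, M2, F1 and F2, and in Cldn5-detected cells at 353, 64.8, 134 and 222 CPM. The ranges overlapped, so that neither class was above the other beyond its spread. In Neurod6-detected cells the level was 5.04 ± 0.828 CPM (SD, n = 4), and in Sox2-detected cells it was 2.79 ± 0.665 CPM. In cells of exactly 1 class the difference from Neurod6-detected cells was 7.27 ± 0.26 (log2, SE) in Cldn5-detected cells, a 154-fold higher level (adjusted p = 7.29e-51, edgeR), and 7.25 ± 0.32, or 153-fold, in Col1a2-high cells. Igf2 was found in 93.7% of Col1a2-high cells, in 30.6% of Cldn5-detected and in 1.16% of Neurod6-detected cells of WT embryos at E12.5, at median depths of 12813.5, 13051 and 8896.5 UMIs per cell. With each cell thinned to 2000 UMIs the shares were 45.8%, 14.46% and 0.34%. The few UMIs in Neurod6-detected cells lay in very few cells, since the top 1% of cells by Igf2 held 96.7% of them. Free RNA in the droplets gives low counts in every class. Igf2 in Neurod6-detected cells was at 1.46% of its level in Col1a2-high cells, where the collagen genes Col1a1 and Col3a1, which neurons should lack, were at 0.387% and 0.491%. Against Cldn5-detected cells it was at 2.60%, where the endothelial genes Flt1, Kdr and Cdh5 were at 1.99%, 2.19% and 1.79%. These shares are from overlapping classes, so cells that met both rules add to them as well as free RNA. Of 37, 41, 90 and 72 Cldn5-detected cells in M1, M2, F1 and F2, 12, 9, 20 and 10 also carried Neurod6. Sox2 was carried by 20, 35, 57 and 43 of them. The part of free RNA in these shares was not tested.

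H19, a long RNA gene that shares its control region and enhancers with Igf2, was high in the same classes. In WT embryos at E12.5 Cldn5-detected cells had 1219, 352, 510 and 785 CPM and Col1a2-high cells 628, 420, 580 and 463 CPM, with overlapping ranges. The differences from Neurod6-detected cells were 7.45 ± 0.35 and 7.22 ± 0.42 on the log2 scale, 175.4-fold and 149-fold (adjusted p = 3.24e-41 for the first). Pooled over stages, H19, unlike Igf2, also stood above neurons in progenitors. It was higher by 3.24 ± 0.27 in Sox2-detected cells, or 9.48-fold, and by 2.87, or 7.29-fold, in Eomes-detected cells. Igf2 was 1.18 lower in the former and 1.08 higher in the latter. The sign of that last Igf2 value turned with the class rule, to -0.60 when cells of several classes were kept and to -0.82 when 2 UMIs of a marker were asked for. The H19 value for Eomes-detected cells was 0.36 (adjusted p = 0.16) when cells of several classes were kept, so that this call rests on the class rule, whereas that for Sox2-detected cells was still called, at 1.45. The pooled values do not hold at each stage. In overlapping classes of WT embryos at E12.5, the H19 mean was lowest in Sox2-detected cells, at 12.3 CPM. That of Eomes-detected cells was also below that of Neurod6-detected cells. From E14.5 on Neurod6-detected cells had the lowest mean.

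Over development H19 fell steeply in endothelial-like cells. In Cldn5-detected cells of WT embryos it went from 717 ± 380 CPM at E12.5 through 131 ± 122 and 51.1 ± 40.2 to 31.0 ± 23.3 CPM at E17.5, where M1, M2, F1 and F2 stood at 51.6, 26.5, 0 and 45.9 CPM (the count of 0 allows up to 8.01 CPM), all below the lowest library at E12.5. The fall was 4.46 ± 0.69 on the log2 scale, or 22.1-fold, the largest change of a member in these cells (edgeR's quasi-likelihood test). Igf2 in the same cells was at 194 ± 124, 43.7 ± 11.4, 85.9 ± 55.6 and 167 ± 57.3 CPM at the 4 stages, and its change from E12.5 to E17.5 did not pass the test. In all retained cells Igf2 fell by 2.21 from E12.5 to E14.5 (adjusted p = 0.00105) and rose by 1.83 from E16.0 to E17.5 (adjusted p = 0.017), and in Sox2-detected cells these steps were -3.41 and 2.55. The late rise missed the threshold without the E17.5 libraries M1 and F1 in all retained cells (1.65, adjusted p = 0.059) and without M2 and F2 in Sox2-detected cells (1.77, adjusted p = 0.22). The fibroblast gene Col1a2 also fell in the first of these steps and rose in the last: in all retained cells of WT embryos it was at 10.9 to 20.9 CPM at E12.5, 0.442 to 3.85 at E14.5, 0.313 to 1.26 at E16.0 and 1.75 to 3.91 CPM at E17.5, with 202, 6, 6 and 22 Col1a2-high cells. Igf2 means there were 8.69, 2.04, 3.25 and 11.1 CPM. At E17.5 Igf2 thus stood above its E12.5 mean, whereas Col1a2 stayed below its E12.5 range. The later Col1a2-high cells carried other markers, as given above. The part of Col1a2-high and of Cldn5-detected cells in the Igf2 values was not tested. H19 fell in Neurod6-detected cells too, by 2.09, from 18.4 ± 3.27 to 4.63 ± 2.33 CPM, a call that was lost with median UMIs per cell in the fit (-1.21, adjusted p = 0.14) and in cells of exactly 1 class (-1.39, adjusted p = 0.054). It went the other way in Sox2-detected cells, with 10.2, 12.96, 13.5 and 12.4 CPM at E12.5 and 10.4, 40.3, 26.0 and 38.2 CPM at E17.5 in WT M1, M2, F1 and F2. That rise of 1.07 ± 0.36 (adjusted p = 0.011) was seen in 3 of the 4 late libraries. It was 0.37 (adjusted p = 0.38) without the E17.5 libraries M2 and F2 of both genotypes, and leaving out WT M2 of E17.5 alone also ended the call.

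Dlk1 and Meg3, the other pair of neighbours, differed in where they were found. Dlk1, a membrane protein related to the ligands of Notch and a marker of immature mesenchyme, was highest in fibroblast-like cells. Col1a2-high cells of WT embryos at E12.5 had 294, 421, 382 and 359 CPM, no class overlapped them, and Cldn5-detected cells had 28.8 ± 15.5 CPM. The differences from Neurod6-detected cells were 6.79 ± 0.41 (111-fold) in Col1a2-high, 5.28 ± 0.40 (38.8-fold) in Cldn5-detected, 2.61 (6.12-fold) in Eomes-detected and 2.23 (4.70-fold) in Gad2-detected cells. The value for Eomes-detected cells was 0.36 (adjusted p = 0.16) when cells of several classes were kept. It is pooled over stages, and in overlapping classes of WT embryos Eomes-detected cells had the lowest Dlk1 mean at E16.0 and E17.5. In the lineage of excitatory neurons Dlk1 fell. In Eomes-detected cells it fell from 11.1 ± 2.52 to 1.08 ± 0.683 CPM between E12.5 and E17.5, by 3.41 on the log2 scale, and in Neurod6-detected cells by 2.09. In cells of exactly 1 class neither passed (-3.23, adjusted p = 0.17, and -1.51, adjusted p = 0.15), and in Neurod6-detected cells the call was also lost with median UMIs per cell in the fit (-1.42, adjusted p = 0.087). In Cldn5-detected cells it was at 28.8 ± 15.5, 50.3 ± 24.6, 75.1 ± 52.1 and 73.1 ± 47.5 CPM, a course that did not pass the test.

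Meg3, a long RNA gene read from the maternal copy, was found in every class, and it rose with age in most of them. At E12.5 it was highest in Col1a2-high cells of WT embryos, at 1388, 1353, 1634 and 1577 CPM, against 285 ± 64.1 CPM (n = 3) in Gad2-detected, 240 ± 22.6 CPM in Neurod6-detected and 111 ± 2.88 CPM in Sox2-detected cells. From E14.5 on its highest mean was in Gad2-detected cells. Those had 344, 217 and 294 CPM in M1, M2 and F1 at E12.5, and 1255, 1353, 1848 and 1078 CPM in M1, M2, F1 and F2 at E17.5, a rise of 2.22 ± 0.34, or 4.67-fold, without overlap. In all retained cells the rise was 2.00 ± 0.32, or 4.004-fold, in Cldn5-detected cells 1.69 ± 0.40 (3.23-fold), in Sox2-detected cells 1.43 ± 0.29 (2.695-fold) and in Neurod6-detected cells 1.24 ± 0.35 (adjusted p = 0.0031). In Sox2-detected cells the rise was late: 111 ± 2.88, 187 ± 68.0 and 113 ± 31.0 CPM were followed by 334 ± 93.8 CPM, and the last step was 1.65 (adjusted p = 0.00018). Some Sox2-detected cells also met the Gad2 rule. At E12.5 those were 39 of 3661, 5 of 3035, 28 of 3507 and 4 of 4134 in WT M1, M2, F1 and F2. At E17.5 they were 95 of 680, 205 of 799, 71 of 509 and 109 of 700. The part of this mixture in the rise was not tested. From E12.5 to E17.5 the rise in Sox2-detected cells was called under all 42 alternatives, cells of exactly 1 class included, at 0.87 to 2.05. Eomes-detected cells went down, from 240 ± 32.4 to 156 ± 64.2 CPM, by 0.75, but in cells that met no other rule (456 WT cells at E12.5 and 160 at E17.5) the difference was 0.62, so that this direction depends on the class rule. The call was also lost with median UMIs per cell in the fit (-0.37, adjusted p = 0.23), with all deposited barcodes and without the removal of doublets (-0.49, adjusted p = 0.078 and 0.079).

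The rise of Meg3 in neurons went with a mark of the libraries. At E17.5 the labels carry codes of 2 kinds, whose meaning is not stated: those of M1 and F1 of both genotypes start with p and those of M2 and F2 with c16 or c17. In Neurod6-detected cells the 4 libraries of the first kind had 788 to 1306 CPM of Meg3 (mean 973) and the other 4 had 293 to 382 CPM (mean 326). Rian, the next gene on the same strand, was split the same way, at 37.8 to 81.7 against 13.3 to 20.02 CPM, and so was Malat1, an abundant RNA kept in the nucleus, at 23688 to 37008 against 14508 to 15386 CPM. Mest went in the reverse direction, at 36.8 to 52.3 against 74.6 to 79.9 CPM, and so did H19, at 1.37 to 3.49 against 6.33 to 9.82 CPM; the fall of H19 there was 1.59 without the first kind and 2.88 without the second. With the first kind left out, the rise of Meg3 in Neurod6-detected cells was 0.27 ± 0.26 (adjusted p = 0.40), and with the second kind left out it was 1.81 ± 0.26. In all retained cells Meg3 was split by kind too, at 871 to 1312 against 452 to 560 CPM, and its rise ran from 1.37 to 3.08 over all alternatives. In Sox2-detected cells the kinds overlapped, with 253 to 359 and 242 to 455 CPM, and in Gad2-detected cells the rise was 2.09 and 2.39 without the one or the other. In Cldn5-detected cells it was 1.18 (adjusted p = 0.078) without the second kind, so that this call rests on it, and 1.84 (adjusted p = 0.077) under the stricter marker rule. Without the second kind the fall in Eomes-detected cells was 0.39 (adjusted p = 0.22). The part of the codes in these values was not tested.

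**Figure D2:**
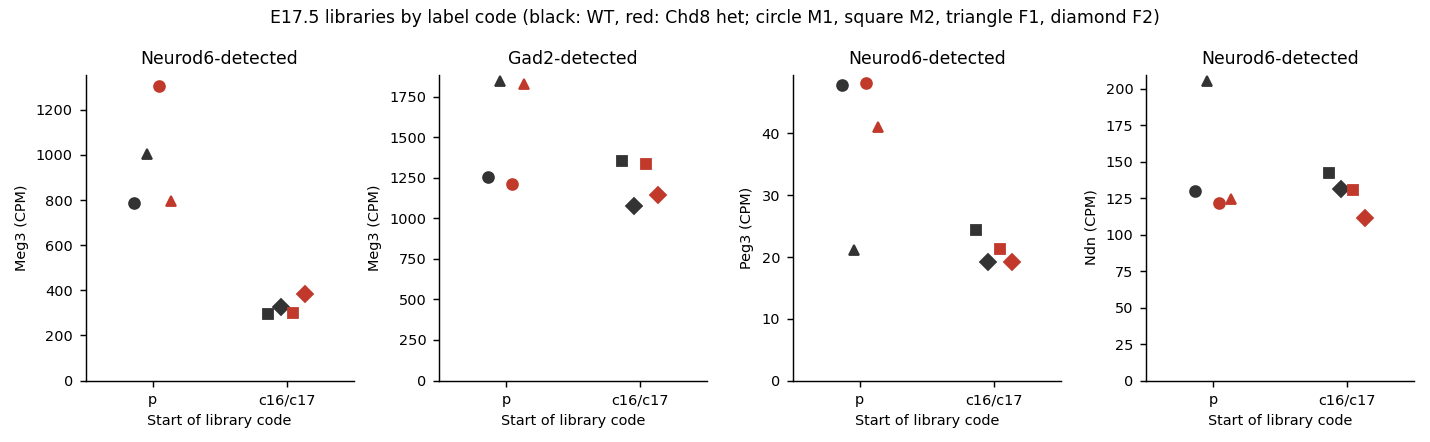
Level at E17.5 in CPM, by the start of the library code, with 4 libraries of each kind; black marks WT and red Chd8 het libraries, and the shape gives the pair. In Neurod6-detected cells Meg3 was at 788 CPM or more in the libraries with p codes and at 382 CPM or less in the rest, Peg3 was at 41.0 CPM or more in 3 of the former, and Ndn did not split this way.

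Grb10 and Plagl1 were higher in progenitors and in endothelial-like cells than in neurons. Grb10, an adaptor that binds and dampens the insulin and IGF receptors, was at 253 ± 26.6 CPM in Col1a2-high, 180 ± 14.4 CPM in Cldn5-detected, 149 ± 8.95 CPM in Sox2-detected, 117 ± 5.92 CPM in Eomes-detected and 91.2 ± 8.47 CPM in Neurod6-detected cells of WT embryos at E12.5. In cells of exactly 1 class, where neurons do not include cells that still carry Sox2 or Eomes, it was 10.3-fold higher in Sox2-detected (3.37 ± 0.13), 9.88-fold in Eomes-detected, 14.0-fold in Cldn5-detected and 12.4-fold in Col1a2-high cells than in Neurod6-detected cells. Over time its fitted change was negative in every class tested. In Neurod6-detected cells of WT M1, M2, F1 and F2 it went from 85.6, 96.2, 100.4 and 82.5 CPM at E12.5 to 18.5, 20.7, 14.7 and 27.1 CPM at E17.5, a fall of 2.26 ± 0.22, or 4.80-fold, without overlap. The fall was 1.04 ± 0.13 in Sox2-detected, 1.08 in Eomes-detected, 1.29 in Gad2-detected and 0.76 ± 0.24 in Cldn5-detected cells (adjusted p = 0.017). The call in Cldn5-detected cells was lost in cells of exactly 1 class (-0.13, adjusted p = 0.82), under the stricter marker rule (-0.31), with median UMIs per cell in the fit (-0.71), without WT F2 of E12.5 (-0.71) and without the E17.5 libraries with c codes (-0.82). That in Gad2-detected cells was lost with median UMIs per cell in the fit (-0.97, adjusted p = 0.34), without either kind of E17.5 library and without WT F1 or M2 of E12.5, and that in Eomes-detected cells in cells of exactly 1 class (-0.39, adjusted p = 0.20). The decline in progenitors was thus shallower than in neurons in these values, a difference that was not tested.

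Plagl1, a zinc finger transcription factor that slows the cell cycle, was highest in endothelial-like cells and radial glia. Its level in WT embryos at E12.5 was 220 ± 36.4 CPM in Cldn5-detected, 136 ± 11.7 CPM in Sox2-detected and 67.8 ± 9.23 CPM in Neurod6-detected cells, and from E14.5 on its highest mean was in Sox2-detected cells. It stood 2.63 ± 0.10 above Neurod6-detected cells in Sox2-detected (6.20-fold), 2.46 ± 0.16 in Cldn5-detected (5.52-fold) and 1.40 in Eomes-detected cells, and 1.96 below them in Gad2-detected cells (3.90-fold lower). Unlike the other members it was not called in Col1a2-high cells (0.30, adjusted p = 0.37). In Cldn5-detected cells of WT embryos it went from 261, 173, 229 and 219 CPM to 44.3, 47.4, 48.1 and 34.9 CPM, a fall of 2.30 ± 0.23, or 4.91-fold, with no overlap. In Sox2-detected cells it was at 133, 121, 143 and 148 CPM and at 91.5, 97.5, 69.2 and 97.9 CPM at E17.5, a fall of 0.78 ± 0.12, and in Neurod6-detected cells the fall was 1.53. In cells of exactly 1 class these were -0.19 (adjusted p = 0.13) and -0.96, the first no longer called.

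Mest and Peg10 were highest in endothelial-like cells of the youngest embryos. Mest, an enzyme-like protein of the alpha/beta hydrolase fold named for its expression in mesoderm, was at 1663, 1541, 1525 and 1806 CPM in Cldn5-detected cells of WT embryos at E12.5, and its range overlapped that of Col1a2-high cells (1290, 1691, 1101 and 1042 CPM). It then went through 735 ± 436 and 524 ± 217 CPM to 369, 127, 184 and 198 CPM at E17.5, a fall of 2.88 ± 0.40, or 7.34-fold, which with median UMIs per cell in the fit was -1.70 and missed the threshold (adjusted p = 0.052). Among cells of exactly 1 class it was 20.03-fold higher in Cldn5-detected, 14.4-fold in Col1a2-high and 5.39-fold in Sox2-detected than in Neurod6-detected cells. Its value for Eomes-detected cells, 0.32 (adjusted p = 0.0499), turned to -0.12 under the stricter marker rule. The call was also lost in 20 of 38 alternatives, 16 of them with a single library left out. In Sox2-detected cells its course went up and down: 254, 327, 311 and 238 CPM at E12.5, 122, 151, 190 and 179 CPM at E14.5, 300, 351, 261 and 301 CPM at E16.0 and 115, 251, 169 and 202 CPM at E17.5. The first 2 steps passed the test (-0.93, adjusted p = 0.0036, and 0.78, adjusted p = 0.043) and the last did not (-0.63, adjusted p = 0.068). In all retained cells the means were 276 ± 39.6, 101 ± 14.3, 168 ± 30.7 and 89.5 ± 28.4 CPM, where the second step did not pass (0.55, adjusted p = 0.15). At E17.5 the libraries of both genotypes with p codes had 51.9 to 68.8 CPM there and those with c codes 102.6 to 118 CPM, and in Sox2-detected cells 88.0 to 169 and 179 to 251 CPM. Without the p codes the last step in all retained cells was -0.47 (adjusted p = 0.21), in place of -0.83.

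Peg10, a gene derived from a retrotransposon and needed for the placenta, was rare in other classes. Cldn5-detected cells of WT embryos had 74.8, 90.5, 62.4 and 90.0 CPM at E12.5, above every library of any other class, and 2.46, 5.58, 8.01 and 9.17 CPM at E17.5. The fall was 3.56 ± 0.44, or 11.8-fold, and it came between E12.5 and E14.5, when the mean went from 79.4 ± 13.5 to 8.42 ± 7.11 CPM. Cldn5-detected cells stood 4.57 ± 0.25 above Neurod6-detected cells, or 23.7-fold, Col1a2-high cells 1.89 (3.72-fold) and Sox2-detected cells 1.51 (2.84-fold). Cldn5-detected cells also held RNA of red blood cells, with the summed level of 7 hemoglobin and related genes from 766 to 11316 CPM in WT libraries at E12.5 and from 18720 to 65354 CPM at E17.5. The share of that RNA thus moved with the fall of H19, Mest, Plagl1 and Peg10, and its part in these values was not tested. Overlap with other classes also differed by stage. In WT M1, M2, F1 and F2 of E12.5, 20, 35, 57 and 43 of 37, 41, 90 and 72 Cldn5-detected cells carried Sox2. At E17.5 those were 5 of 48, 22 of 87, 9 of 45 and 21 of 70. Neurod6 was carried by 12, 9, 20 and 10 at E12.5 and by 22, 52, 34 and 41 at E17.5. The part of this overlap in the courses was not tested.

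Ndn and Peg3 were found in every class. Ndn encodes necdin, a protein of the MAGE family that is abundant in neurons and lies in the region lost in Prader-Willi syndrome. At E12.5 WT Neurod6-detected cells had 402, 316, 340 and 366 CPM, above all other classes, Eomes-detected cells had 168 ± 4.90 CPM and Sox2-detected cells 118 ± 12.9 CPM. Among cells of exactly 1 class Ndn was lower than in Neurod6-detected cells in all 5 others, by 2.40 ± 0.29 in Cldn5-detected (5.27-fold), 1.38 ± 0.29 in Col1a2-high (2.61-fold), 0.87 in Gad2-detected, 0.86 in Eomes-detected and 0.75 in Sox2-detected cells. In Neurod6-detected cells the level fell to 130, 142, 205 and 131 CPM at E17.5, by 1.31 ± 0.18, or 2.48-fold, whereas in Sox2-detected cells it rose by 0.79 from E12.5 to E14.5 (adjusted p = 0.000913), and from E14.5 on neighbouring classes in the order of means overlapped. The highest WT mean was in Sox2-detected cells at E16.0 (204 CPM) and in Eomes-detected cells at E17.5 (165 CPM), in classes that share cells. The class differences above are pooled over stages and do not give the order at each.

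Peg3, a large zinc finger protein, was called in no class between E12.5 and E17.5, with log2 differences from -0.84 to 0.47 that missed the threshold. That does not show that its levels were alike, since its E17.5 libraries differed by code. Those with p codes had means of 39.5 CPM in Neurod6-detected and 39.7 CPM in all retained cells. Those with c codes had 21.0 and 21.4 CPM. Its level in Sox2-detected cells of WT embryos was 25.4 ± 3.97, 20.2 ± 3.27, 27.2 ± 3.66 and 25.8 ± 11.1 CPM at the 4 stages. At E12.5 Col1a2-high cells stood apart, at 79.2 ± 14.3 CPM, and among cells of exactly 1 class they were 3.27-fold above Neurod6-detected cells (1.71 ± 0.19), while Eomes-detected cells were 0.98 lower.

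**Figure D3:**
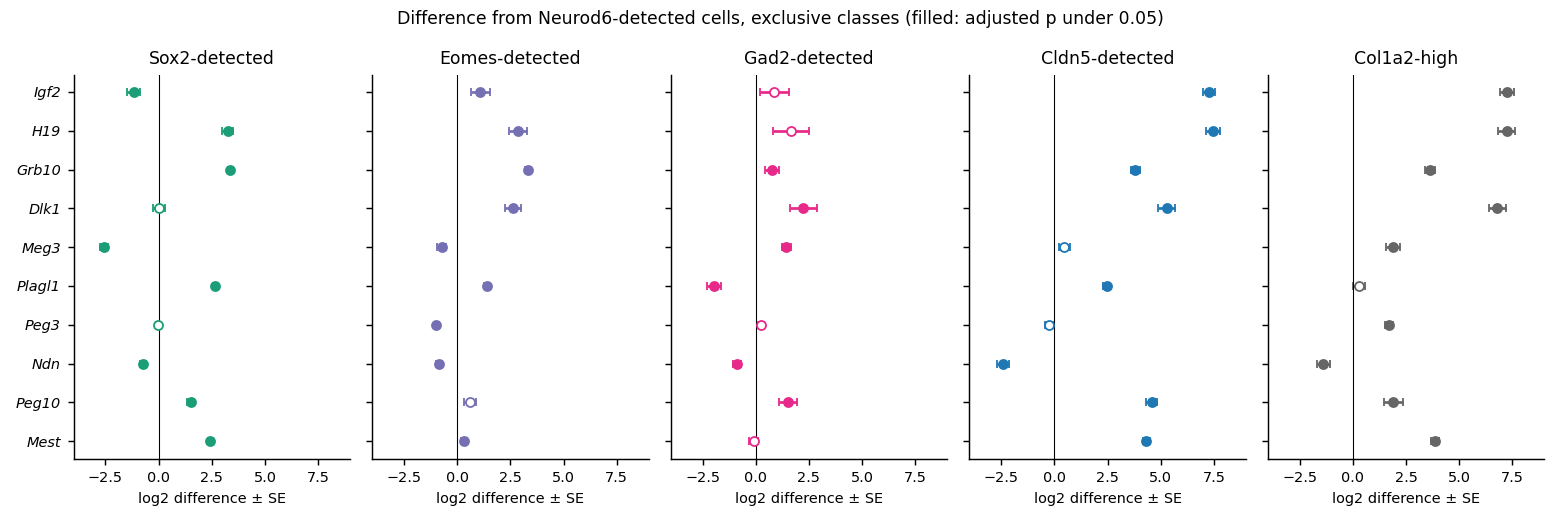
Log2 difference of each imprinted gene from Neurod6-detected cells with its SE, in cells of exactly 1 class; filled circles passed an adjusted p of 0.05 (edgeR's quasi-likelihood test). In Cldn5-detected cells 8 of 10 passed and 7 were higher, in Col1a2-high cells 9 passed and 8 were higher, and Ndn was lower in every panel.

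Seen together in WT embryos, most members that changed between E12.5 and E17.5 fell. In all retained cells 7 of 10 members changed, 1 of them upward, where 67.5% of all genes changed; the median log2 difference was -1.13 for the members and 0.04 for all genes. In Neurod6-detected cells 8 changed, 1 upward (background 59.6%, medians -1.50 and 0.04), in Eomes-detected cells 6, none upward (50.3%, medians -0.77 and 0.02), and in Sox2-detected cells 5, of which 2 upward (59.3%, medians -0.17 and 0.05). In Cldn5-detected cells 6 changed, 1 upward (28.8%, medians -0.80 and 0.06), and in Gad2-detected cells 3 of 8 tested changed, 1 upward (15.3%, medians -0.48 and 0.06). These sum to 35 of 58 comparisons, 6 upward and 29 downward, with 39 at an unadjusted p under 0.05. The share of members called was close to the background in all retained, Eomes-detected and Sox2-detected cells and above it in the others, which over so few genes was not tested. In the wider list of 53 other imprinted genes, 34 of the 45 tested changed in all retained cells, 19 upward, with a median of 0.17, and 24 of 42 changed in Neurod6-detected cells, 12 upward, with a median of 0.23. With the median UMIs per cell added to the fit, which were lower at E17.5 than at E12.5, 22 of the 35 calls were kept, and 23 calls were made in cells of exactly 1 class, 21 of them shared. The share of all genes called under these settings is not given here. Whether the drop is particular to the members was therefore not tested.

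The study's main comparison, of Chd8 het with WT, gave 1 call among these genes, and 8 with the litter pair as a replicate block, under which 0% to 1.64% of all genes passed in a population. Averaged over the stages, 68 pairs of a member and a class were tested and 1 passed, while 14 had an unadjusted p under 0.05. At single stages 160 tests in all retained, Sox2-, Eomes- and Neurod6-detected cells gave 0 calls by edgeR's quasi-likelihood test and 1 by DESeq2, with 20 at an unadjusted p under 0.05 in edgeR. A dependence of the genotype difference on the stage was called in 0 of 58, with 3 under an unadjusted p of 0.05. In that test 0% of all genes passed in each population by edgeR. DESeq2 called 0 of the members too. The background was low: averaged over stages, 0.283% of all genes passed in all retained cells, 0.536% in Sox2-detected, 0.328% in Eomes-detected, 0.213% in Neurod6-detected and 0% in Gad2- and Cldn5-detected cells. At E12.5 alone it was 0.34% in all retained, 1.41% in Sox2-detected, 0.45% in Eomes-detected and 0.00686% in Neurod6-detected cells, and at the later stages at most 0.0217%, reached in Sox2-detected cells at E16.0, with 0.00763% in Eomes-detected cells of that stage. By edgeR's quasi-likelihood test no gene of the wider list passed, averaged or at single stages. At E12.5 DESeq2 called 2 of 45 of them in all retained, 3 of 40 in Sox2-detected and 2 of 37 in Eomes-detected cells, and the replicate block called 8, 9 and 5, and 2 of 42 in Neurod6-detected cells. The shares of all genes were larger there too, at 4.1%, 6.77% and 3.73% by DESeq2 and 13.8%, 15.5%, 6.76% and 5.14% with the block. Log2 differences of members lay from -0.31 to 0.15 in Sox2-detected, from -0.27 to 0.44 in Neurod6-detected and from -0.21 to 0.42 in Cldn5-detected cells, with medians of -0.13, -0.16 and -0.05 against 0.00031, -0.0043 and 0.0022 for all genes.

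The 1 call was H19 in Col1a2-high cells at E12.5, and it was the only gene of 8743 tested there to pass (0.0114%). WT libraries M1, M2, F1 and F2 had 628, 420, 580 and 463 CPM, and het libraries 194, 276, 200 and 277 CPM. Every het library lay below every WT library, and the het one was lower in 4 of 4 pairs. The means were 523 ± 97.4 and 237 ± 46.0 CPM (SD, n = 4 each), a difference of -1.08 ± 0.18 on the log2 scale, or 2.11-fold lower in het (adjusted p = 0.0296, edgeR's quasi-likelihood test). With the litter pair as a block it was -1.02 (adjusted p = 2.83e-07), in DESeq2 -1.06 (adjusted p = 0.000237), and with depth in the fit -0.999 (adjusted p = 0.0358). Without WT M1, WT F1, het M1 or het F1, it lay between -1.02 and -0.98 and missed the threshold (adjusted p from 0.19 to 0.36). Without the E17.5 library that the fit also held it was -1.06 (adjusted p = 0.039).

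A few cells held much of that count. One cell held 200 of the 376 H19 UMIs of WT M1 (53.2%, exact binomial 95% interval 48.0 to 58.3%, counting error only), and the top cell held 98 of 335 in M2, 111 of 335 in F1 and 27 of 455 in F2. In het libraries it held 6 of 29, 12 of 118, 4 of 16 and 16 of 105. The Col1a2-high cells of WT also held more RNA of Cldn5: those of M1, M2, F1 and F2 had 32, 96, 93 and 3 UMIs of Cldn5 and those of het 0, 1, 0 and 0, and Rgs5 stood at 66.8, 265, 204 and 108 CPM against 13.4, 124, 0 and 5.28 CPM. The summed level of 6 endothelial markers ran from 10.2 to 495 CPM in WT but only from 6.70 to 25.8 CPM in the het ones, while that of 6 fibroblast markers ran from 7578 to 9162 and from 8303 to 11008 CPM and that of 6 pericyte markers from 894 to 1360 and from 689 to 1426 CPM. With cells that met exactly 1 rule, which drops those that carry Cldn5, the levels were 328, 355, 467 and 487 CPM in WT and 201, 302, 154 and 250 CPM in het. The groups still did not overlap, and the difference was -0.78 (adjusted p = 0.22). Asking for 5 UMIs of Col1a2 also gave -0.78 (adjusted p = 0.70). The share of Col1a2-high cells with an H19 UMI, which the top cell cannot move, ran as follows: 89.7, 83.0, 92.3 and 92.2% in WT, against 68.8, 89.7, 78.6 and 74.4% in het. These overlap, and the het libraries M1, F1 and F2 were also shallower, with median UMIs per cell of 10124.5, 6054 and 8618 against 12662, 13484 and 11878 in WT. Cell numbers were small, 39, 47, 39 and 77 in WT and 16, 29, 14 and 43 in het.

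**Figure D4:**
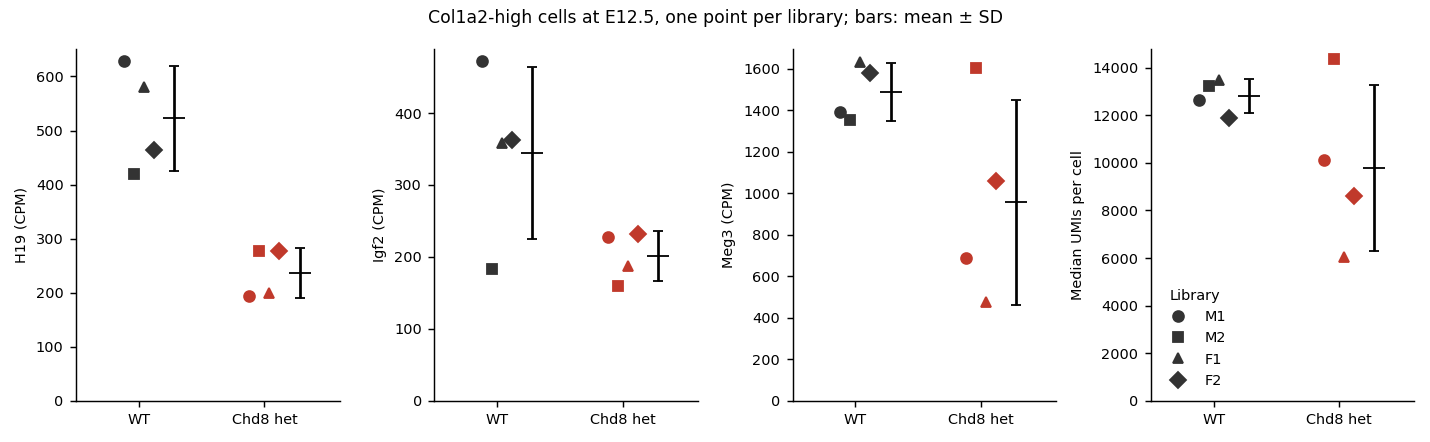
Col1a2-high cells at E12.5: H19, Igf2 and Meg3 in CPM and the median UMIs per cell, with a point for each library, its shape giving the pair, and bars for the mean ± SD (n = 4). For H19 the 4 het libraries (194 to 277 CPM) lie below the 4 WT libraries (420 to 628 CPM), whereas for Igf2, Meg3 and depth the groups overlap.

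Igf2 and Meg3 were also lower in het in the same cells, by values that did not pass. Igf2 was at 473, 183, 358 and 362 CPM in WT and at 228, 159, 188 and 232 CPM in het, a difference of -0.77 ± 0.24 (adjusted p = 0.39; with the litter pair as a block, -0.66, adjusted p = 0.014). The groups overlapped through WT M2. Meg3 was at 1388, 1353, 1634 and 1577 CPM against 690, 1602, 475 and 1056 CPM (-0.59, adjusted p = 0.49; with the block, -0.67, adjusted p = 0.0023), and its het M2 value lay among those of WT. Without het M2 Meg3 was -0.89 (adjusted p = 0.034, with 0.331% of all genes called), and with no filter on low counts both passed, Igf2 at -0.83 (adjusted p = 0.0021) and Meg3 at -0.64 (adjusted p = 0.012), where 0.593% of all genes did. Under the block 1.02% of all genes passed in these cells. The median over the members was -0.41, against -0.03 for all genes.

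Ndn was the member with the lowest p in each of the large populations. In Sox2-detected cells the WT and het libraries M1, M2, F1 and F2 had 122, 133, 116 and 102 against 97.6, 126, 86.2 and 81.9 CPM at E12.5. At E14.5 they had 200, 188, 184 and 313 against 197, 170, 148 and 177 CPM. At E16.0 the values were 224, 235, 176 and 182 against 174, 202, 163 and 153 CPM, and at E17.5 139, 126, 250 and 120 against 126, 111, 133 and 110 CPM. The het library was thus lower in 16 of 16 pairs, although the groups overlapped at every stage. The difference averaged over stages was -0.31 ± 0.091 in Sox2-detected (adjusted p = 0.17), -0.28 ± 0.084 in Eomes-detected (adjusted p = 0.20), -0.28 ± 0.087 in all retained (adjusted p = 0.27) and -0.27 ± 0.091 in Neurod6-detected cells (adjusted p = 0.48), by edgeR's quasi-likelihood test, and none passed. With the litter pair as a replicate block the values were -0.29 (adjusted p = 0.016), -0.27 (0.047), -0.27 (0.024) and -0.27 (0.052), so that 3 of the 4 passed, where 1.64%, 1.27%, 1.64% and 0.858% of all genes did. The classes share cells and libraries and are no independent evidence for each other. Het was lower in 15 of 16 pairs in all retained and in Neurod6-detected cells, in 14 of 16 in Eomes-detected, 12 of 14 in Gad2-detected and 11 of 16 in Cldn5-detected cells, and in 2 of 4 in Col1a2-high cells. Pair counts, here and for other members below, were made for the members alone. How many of all genes reach such counts is therefore not known. Over all alternatives the value in Sox2-detected cells ran from -0.37 to -0.23.

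**Figure D5:**
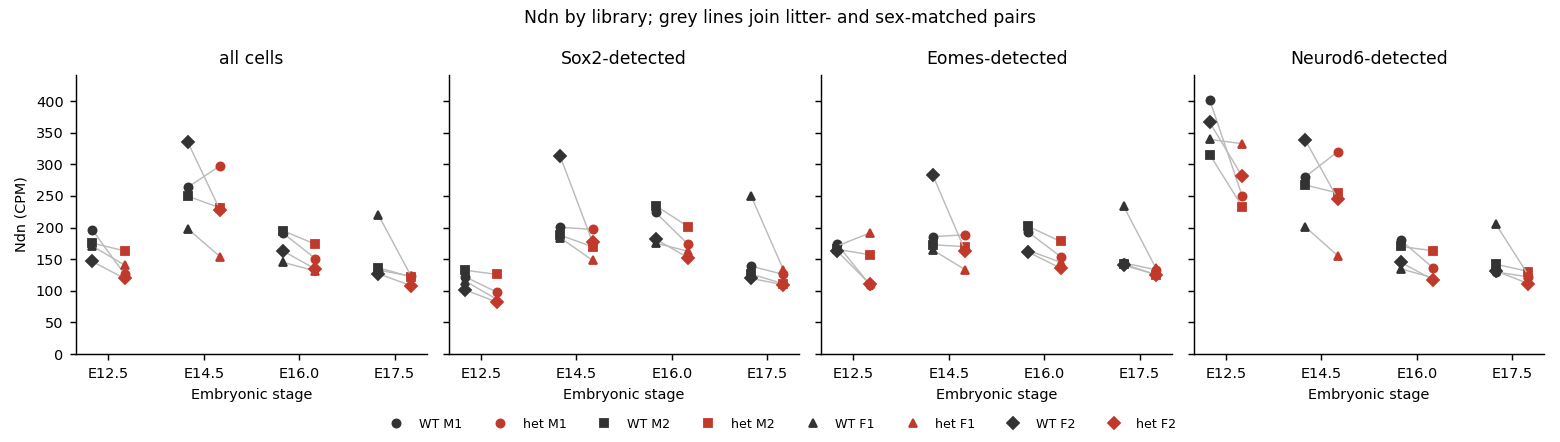
Ndn in CPM by stage in 4 populations; black marks WT and red Chd8 het libraries, and grey lines join litter- and sex-matched pairs. In Sox2-detected cells the line goes down from WT to het in 16 of 16 pairs, and in Neurod6-detected cells in 15 of 16.

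In the rarer classes the lowest p values belonged to Dlk1 in Gad2-detected cells (-1.21 ± 0.50, adjusted p = 1.00) and Peg10 in Cldn5-detected cells (0.31, adjusted p = 0.98), neither of which passed in edgeR averaged over stages. The Dlk1 value ran from -2.39 to -0.37 over the alternatives. In edgeR with no filter on low counts, Dlk1 passed there at E16.0 (-1.95, adjusted p = 0.0076). So did H19 at E16.0 (1.38, adjusted p = 0.017) and Meg3 at E12.5 (-1.07, adjusted p = 0.016) in Cldn5-detected cells. The share of all genes for these is not given here. Under the replicate block Mest was called too, at -0.29 in Sox2-detected cells (adjusted p = 0.020) and -0.21 in all retained cells (adjusted p = 0.046), with het lower in 14 and 13 of 16 pairs. Peg3 was lower in het in 15 of 16 pairs in Sox2-detected (-0.31, adjusted p = 0.26) and in 14 of 16 in all retained cells (-0.22, adjusted p = 0.77), and neither passed. Other members went the other way, and did not pass. Dlk1 was higher in het in 13 of 16 pairs in Eomes-detected cells. At E17.5 Grb10 was higher in 4 of 4 in all retained, Sox2-, Eomes- and Neurod6-detected cells.

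At E12.5 alone, where het libraries were shallower in 3 of 4 pairs, Peg3 in Sox2-detected cells had the lowest p among all retained, Sox2-, Eomes- and Neurod6-detected cells, and it and Meg3 are given here, chosen after their values were seen. Larger differences in Neurod6-detected cells, of Igf2 (-1.42, adjusted p = 0.28) and H19 (-1.04, adjusted p = 0.37), did not pass. Without het M2 H19 there was -2.14 (adjusted p = 0.012), and 10 tests passed in the 4 populations, where 9.05% of all genes passed in all retained, 13.6% in Sox2-detected, 9.69% in Eomes-detected and 9.42% in Neurod6-detected cells. Peg3 in Sox2-detected cells was at 29.2, 19.9, 25.3 and 27.2 CPM in WT and at 14.1, 18.3, 12.6 and 14.8 CPM in het, without overlap, a difference of -0.68 ± 0.20 (adjusted p = 0.071 in edgeR and 0.022 in DESeq2; -0.66, adjusted p = 0.011, with the block). The background there was 1.41% of genes, and 15.5% with the block. Meg3 in those cells was at 115, 109, 109 and 110 CPM in WT and at 58.8, 111, 24.1 and 71.3 CPM in het (-0.67, adjusted p = 0.20), and in Neurod6-detected cells at 257, 211, 233 and 259 against 128, 210, 66.3 and 137 CPM. In both, the het library of full depth, M2, had the level of WT and the 3 shallower ones lay below it. The M2 libraries of both genotypes also differ in their label codes, which start with c15 where all others of E12.5 start with c10. Depth and code therefore cannot be told apart among the het libraries. With the block, 9 tests passed at E12.5 in these 4 populations: Peg3, H19 and Meg3 in all retained cells (background 13.8%), Peg3 and Meg3 in Sox2-detected, H19, Meg3 and Mest in Neurod6-detected (5.14%) and Plagl1 in Eomes-detected cells (6.76%), all of them lower in het. The fit without the block gave 0 calls in them, with or without the median UMIs per cell. Block and depth were not fitted together, so the part of depth in the 9 block calls was not tested.

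Genes with the same pattern were sought over the 21 WT means of class and stage, by Pearson's correlation of log2(CPM + 1) over genes of at least 10 CPM on average. The means share libraries and cells, so the values are descriptions. The closest genes were Tfpi (0.987) and Foxc1 (0.980) for Igf2, Mest (0.942) for H19, Foxc1 (0.922) for Dlk1, Suclg2 (0.953) for Grb10, Plaat3 (0.929) for Plagl1, Tram1 (0.968) and Eif4ebp1 (0.964) for Mest, S100a10 (0.855) for Peg3 and Slc25a29 (0.841) for Ndn. Peg10 was closest to other members, H19 (0.927) and Mest (0.914). Neighbours on the chromosome differed: Meg3 was closest of all to Rian (0.920), 32.2 kb away, and Igf2 and H19 reached 0.850, but Dlk1 and Meg3 reached only 0.478. Peg10 and Sgce, 99 bp from it, reached 0.422, Ndn and Magel2 0.592, and Peg3 and Usp29 -0.235.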

How the data were processed

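Single-cell RNA was measured in 32 libraries by 10x Genomics 3′ chemistry, version v2, per the labels' protocols. The authors deposited whole UMI counts per gene and barcode, not normalised; per the submitters' processing notes, STAR 2.7.9a, STARsolo, Cell Ranger and the build mm10 were used. Whether free RNA was removed and whether counting used strand is not given in the sources used here. The files held 145082 barcodes. Of these, 143697 had at least 1000 UMIs, 500 genes and a mitochondrial share of at most 10%, and 5471 cells were removed as doublets by a score against simulated ones, at an assumed rate of 0.8% per 1000 cells (1.96 to 5.92% of a library). Depth was 14710694 to 66499864 UMIs per library.

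Counts were summed per library and class, where at least 10 cells were present; at E12.5 the Gad2-detected cells of het M1 and WT F2 fell short. CPM is the sum divided by the total UMIs of that sum. Genotypes and stages were compared with edgeR 4.0.16 in R 4.3.3 (TMM, filterByExpr with a minimum count of 10, quasi-likelihood test, 8 groups in 1 fit per class), with p-values adjusted over all genes by Benjamini and Hochberg and called at an adjusted p under 0.05. Classes were compared in cells of exactly 1 class with the library as a block. DESeq2 1.42.0 and other cell filters, class rules, covariates and sets of libraries were alternatives; the depth covariate and the sets that leave out all E12.5 libraries or E17.5 libraries by code were chosen after seeing the data. The self-test on simulated counts recovered 100% of genes changed 2-fold in all retained and in Neurod6-detected cells, 85% in Cldn5-detected cells and 95% in the class fit, with 15841, 14566, 7942 and 9993 genes, and of genes changed 1.5-fold 100%, 100%, 64% and 54%. It changed only genes of at least 10 CPM on average and gave all genes the same preset spread between libraries, not that of these data. These rates therefore do not give the power for the members. Per the labels, WT and het libraries of a pair share litter and sex. In all 16 pairs their deviations from the group means correlated at over 0.1 (0.159 to 0.874, 8624 genes). The own partner correlated best in 13 of 16. The exceptions were M1 (0.159 against 0.311 for the best other) and F1 (0.278 against 0.350) of E12.5 and M2 (0.258 against 0.485) of E16.0. For these the pairing rests on the labels alone. The library codes do not single out these pairs. Codes of M1, F1 and F2 of both genotypes start alike at E12.5, as do those of M1 and M2 at E16.0. Genotype results were named for members called in the averaged contrast and for the member with the lowest p in each class. The members, the lists and the tests were chosen with earlier results of these data known. Limits for counts of 0 (3 counts) and binomial intervals cover counting error only. Positions come from GENCODE M21, in which 99.8% of gene identifiers were found.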

Additional observations from a re-analysis of the deposited data

Results flagged for a closer look

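In 12 of 150 groups of 4 libraries, 1 library lay far from the other 3, by the gap to its neighbour as a share of the group's range (Dixon's test); chance gives about 1 in 20, and 26 groups of other sizes were not examined. Only these members and the classes named in the report were examined. H19 in Cldn5-detected cells was high in 3 of them: at E14.5 in WT M1 (315 CPM, others 67.6 to 73.2), at E16.0 in het F2 (304 CPM, others 86.5 to 118) and at E17.5 in het M2 (106 CPM, others 3.55 to 20.2). In Sox2-detected cells H19 was low in het M2 at E16.0 (19.8 CPM, others 22.6 to 23.0).

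Ndn was high in WT F2 at E14.5 in Sox2-detected cells (313 CPM, others 184 to 200). At E17.5 it was high in WT F1, with 250 CPM in Sox2-detected (others 120 to 139) and 205 CPM in Neurod6-detected cells (others 130 to 142), which touches the E17.5 values of the genotype comparison. Without either library the averaged difference of Ndn in Sox2-detected cells stayed between -0.37 and -0.23, the range over all alternatives.

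The het library F1 of E16.0 was apart for Grb10 in Neurod6-detected cells (29.9 CPM, others 40.7 to 42.7), for Plagl1 in Sox2-detected cells (125 CPM, others 137 to 139) and, upward, for Plagl1 in Cldn5-detected cells (97.7 CPM, others 63.5 to 68.9). Meg3 was low in Gad2-detected cells of het F1 at E14.5 (764 CPM, others 1120 to 1130), and Peg3 was high in Neurod6-detected cells of het M1 at E16.0 (26.6 CPM, others 20.2 to 21.2).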

How the results depend on the processing

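The 1 genotype call averaged over stages became 8 with the litter pair as a replicate block, 3 without a filter on low counts, 2 without the E17.5 libraries with p codes (Peg3 in Sox2-detected cells added, -0.39), and 0 in cells of exactly 1 class, under the stricter marker rule and without all E12.5 libraries (a setting in which Col1a2-high cells could not be fitted, and was not run, for want of libraries with 10 such cells). Leaving out 1 library at a time gave 0 to 2, with 0 without WT M1, WT F1, het M1 or het F1 of E12.5 and 2 without het M2 of E12.5. The 0 calls at single stages in all retained, Sox2-, Eomes- and Neurod6-detected cells became 9 with the replicate block, 1 in DESeq2, 1 in cells of exactly 1 class, 2 without either kind of E17.5 code, and 0 to 10 with 1 library left out (10 without het M2 of E12.5, where 9.05 to 13.6% of all genes passed). The interaction gave 2 calls without a filter, of H19 in Cldn5-detected and Dlk1 in Gad2-detected cells, and 0 otherwise, the replicate block and each library left out included.

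The 35 stage calls in WT became 22 with depth as a covariate and 23 in cells of exactly 1 class, and 32 to 37 with 1 library left out. The share of all genes under these settings is not given here. Of the 35 calls, 15 passed under every alternative. Of the 40 class calls 34 did, with 37 to 42 calls when 1 library was left out. The sign turned for Igf2 between Eomes- and Neurod6-detected cells (-0.60 with overlapping classes, -0.82 under the stricter rule), for Mest there (-0.12 under the stricter rule) and for Meg3 by stage in Eomes-detected cells (0.62 in cells of exactly 1 class). The causes of these changes were not tested. Cell numbers limit the depth of Cldn5-detected, Gad2-detected and Col1a2-high cells, of which a library in the fits of genotype and stage held as few as 14, 11 and 10. In the class fit a library held as few as 12 Cldn5-detected cells (WT M1 of E16.0). For these classes a value that misses the threshold does not show that levels were alike.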
